A study of Mus musculus with 2 samples.

Results

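Sugar and monocarboxylate transporters were compared between mouse fallopian tube epithelial organoids with and without Trp53, the gene of the tumour suppressor p53. The members are all genes whose symbol starts with Slc2a (facilitative sugar transporters), Slc5a (sodium-coupled solute transporters) or Slc16a (monocarboxylate transporters). They number 39 of the 25668 genes in both files, with 12 in Slc2a, 13 in Slc5a and 14 in Slc16a. RNA was measured in 2 libraries, 1 per genotype. The control library came from organoids of normal fallopian tube epithelial cells, genotype label WT, made from a B6J.129(B6N) mouse with the allele tm1 of Gt(ROSA)26Sor, in which a CAG promoter drives Cas9 and EGFP (CAG-cas9*,-EGFP), from the Fezh line. Whether the knockout organoids came from the same strain was not stated. The other library came from cells called mutated, genotype label Trp53 KO. Both carried the treatment label Conditioned medium. The age of the mice, the number of animals pooled, and whether the knockout line is 1 clone were not stated. With 1 library per genotype no difference has a replicate check, and each statement compares these 2 libraries.

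Cells take up glucose down its gradient through Slc2a proteins, or against it with sodium through some Slc5a proteins. Slc16a proteins of the lactate group move lactate, pyruvate and ketone bodies together with a proton, so they let a cell that ferments glucose release lactate or let another cell take it up. Sodium-coupled monocarboxylate uptake is the task of Slc5a8 and Slc5a12. In the oviduct, the epithelium supplies luminal fluid that holds glucose, lactate and pyruvate for gametes and early embryos.

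Levels are TPM, read numbers per unit of gene length brought to a common total. Levels of different genes can therefore be set side by side. A read in a gene of 1000 bases equalled 0.0168 TPM in control and 0.0565 TPM in knockout organoids, so the control library was 3.37 times as deep by this measure. Reads per gene were recovered from the deposited values, and intervals on a TPM ratio are exact Clopper-Pearson intervals at 95% that cover counting error only. A difference is log2(TPM + 1) in the knockout minus that in the control library. A gene with a mean TPM of at least 1 was called higher or lower from a 2-fold difference on this scale. Of 11228 such genes 8.35% were higher and 15.3% lower, 23.6% in all, with a median difference of -0.17. Trp53 itself was 83.2 TPM in control and 2.42 TPM in knockout organoids.

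Cell type markers differed as well. Of 9 basal and squamous markers 8 were higher, and their summed level was 149.8 TPM in control and 5320 TPM in knockout organoids. All 7 multiciliated markers past the filter, of 8, were lower, with sums of 315 and 71.4 TPM. Of 9 secretory markers 3 were lower and 0 higher, with sums of 22709 and 8363 TPM. Most of the control sum was Lcn2, a secreted lipocalin, at 15660 and 2342 TPM, and 6 of the 9 were within 2-fold. Epcam and Krt8, which mark epithelium, were above 690 TPM in both libraries. Of 6 immune markers, Lyz2 and Csf1r were lower, and the summed level was 265.9 and 0.431 TPM, of which Lyz2 was 256.98 and 0 TPM. Ptprc, the general leukocyte marker, was 0.0886 and 0.0110 TPM, and Cd3e of T cells was listed at 0. Markers of stroma summed to 0.0974 and 0 TPM, of smooth muscle to 0.0244 and 0 TPM, of endothelium to 0.0829 and 0.0269 TPM, and of mesothelium to 1.44 and 1.44 TPM. The part of these shifts in the values below was not tested, and in bulk RNA fewer cells of a type and less RNA per cell cannot be told apart.

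Of the 39 members, 30 were above 0 in the control library and 22 of these also in the knockout library. No member was above 0 in the knockout library alone. Of all 25668 genes, 16094 were above 0 in control and 14066 in knockout organoids, with 2468 in control alone and 440 in knockout alone. The control library was 3.37 times as deep, so a gene with few reads can be listed at 0 in the knockout library through depth. The 9 members listed at 0 in both were Slc2a5, Slc2a7, Slc2a10, Slc2a13, Slc5a2, Slc5a4a, Slc5a4b, Slc5a7 and Slc5a11. They include the fructose transporter Slc2a5, the kidney glucose transporter Slc5a2 and the neuronal choline transporter Slc5a7. Of the 39, 13 members passed the filter on the mean, 2 in Slc2a, 3 in Slc5a and 8 in Slc16a. Of these, 3 were higher (Slc2a1, Slc16a1 and Slc16a3), 4 lower (Slc2a8, Slc5a8, Slc16a4 and Slc16a12) and 6 within 2-fold. The 7 calls are 53.8% of the 13, beside 23.6% of all genes tested. The share is not a measure of the families, since 4 members, all called, passed the filter through 1 library only and were below 1 TPM in the other. Among the 9 members at 1 TPM or more in both libraries 3 were called. The share of all genes called at that level in both libraries was not counted, so this count has no matching background.

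**Figure D1:**
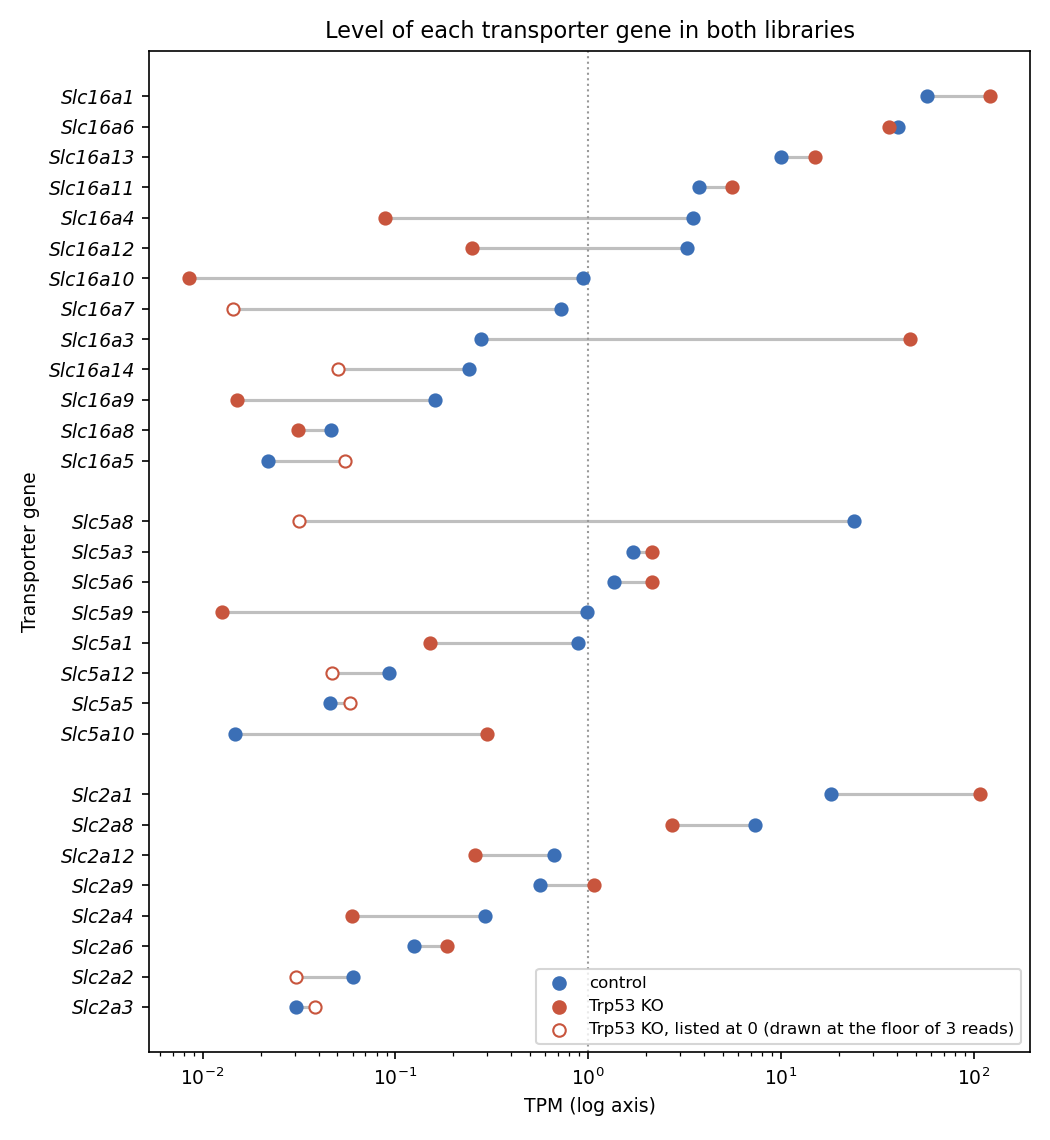
Level in TPM on a log axis of 29 of the 30 transporter genes above 0 in at least 1 library, 1 row per gene and 1 point per library, with the dotted line at 1 TPM. Slc16a3 and Slc2a1 have the knockout point far to the right of the control point, and Slc5a8 has an open point, listed at 0, far to the left; a floor of 3 reads stands in for each listed 0, and for Slc16a5, Slc5a5 and Slc2a3 it lies above the control level. Control is blue and knockout red.

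The higher members encode known carriers of glucose and lactate, and transport itself was not measured. Slc2a1, known as GLUT1, is the glucose transporter of most dividing cells and of barrier epithelia. Slc16a1, known as MCT1, carries lactate and pyruvate in either direction, and Slc16a3, known as MCT4, is the low-affinity lactate exporter of glycolytic cells. Both lactate carriers need the membrane protein basigin to reach the cell surface. The 250 bases before the start of these genes are shown because the 3 members were higher together and all have the core of the hypoxia response element there, written here in capitals. The core was searched as ACGTG or GCGTG on both strands, so CACGT and CACGC are matches on the other strand. The sequences are RefSeq's for GRCm38.p6, an earlier build than that of the measured values, and lie at chr4:119108495-119108744 (Slc2a1), chr3:104638414-104638663 (Slc16a1) and chr11:120948817-120949066 (Slc16a3), all on the plus strand.
Slc2a1: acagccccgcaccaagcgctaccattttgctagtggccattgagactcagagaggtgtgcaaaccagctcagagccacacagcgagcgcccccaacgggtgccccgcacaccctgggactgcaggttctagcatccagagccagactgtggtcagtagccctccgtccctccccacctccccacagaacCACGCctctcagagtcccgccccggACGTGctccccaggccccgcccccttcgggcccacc
Slc16a1: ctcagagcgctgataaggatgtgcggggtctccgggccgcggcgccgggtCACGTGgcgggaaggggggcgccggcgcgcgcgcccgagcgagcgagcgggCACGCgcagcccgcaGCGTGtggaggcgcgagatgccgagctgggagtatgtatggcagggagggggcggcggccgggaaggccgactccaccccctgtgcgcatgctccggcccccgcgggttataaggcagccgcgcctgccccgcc
Slc16a3: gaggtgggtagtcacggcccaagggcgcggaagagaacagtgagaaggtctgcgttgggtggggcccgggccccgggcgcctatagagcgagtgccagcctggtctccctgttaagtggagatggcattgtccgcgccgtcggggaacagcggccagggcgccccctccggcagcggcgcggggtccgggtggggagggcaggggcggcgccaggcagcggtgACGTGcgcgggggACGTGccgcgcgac
Slc2a1 held 2 matches, the nearer starting 36 bases before the start of the gene. Slc16a3 held 2, starting 27 and 14 bases before the start. Slc16a1 held 4, of which 2 overlap as both strands of 1 E-box, CACGTG. A match was present in 38.6% of 32851 promoter windows of this length, so it is common. Among members with a window, it was also present in 3 of 4 lower ones and 3 of 3 within 2-fold. The core thus does not set the higher members apart, and it is a description of these letters and not a measured site. A GC box, GGGCGG on either strand, was also present in all 3 higher members, and in 32.7% of all windows. It was present in 1 of 4 lower members and 2 of 3 within 2-fold.

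Slc2a1 was 18.2 TPM in control and 107.7 TPM in knockout organoids, from 3803 and 6682 reads. The knockout library was higher 5.91-fold, with counting limits of 5.68 and 6.15, and the difference of 2.50 ranked 167 from the top of 11228 genes. Slc2a1 lies on chromosome 4, where 196 of 672 genes were higher and the median difference was 0.63. Relative to that median its difference was 1.87, still beyond 2-fold. In the control library 4875 genes stood above Slc2a1, and in the knockout library 1208.

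The other class I glucose transporters had little RNA. Slc2a2, the GLUT2 of liver and pancreatic islets, was 0.0603 TPM from 20 reads in control organoids and at 0 in knockout organoids. Slc2a3, the high-affinity GLUT3 of neurons and embryos, was 0.0305 TPM from about 8 reads and also listed at 0. At the control level the knockout library would have held 5.94 reads of Slc2a2 and 2.38 of Slc2a3, and the latter is under the floor of 3 reads. Against that floor Slc2a2 was at least 1.98-fold lower, and the counting interval of its control to knockout ratio began at 1.47. For Slc2a3 a difference was not detectable at this depth. Slc2a4, the insulin-responsive GLUT4 of muscle and fat, was 0.290 and 0.0598 TPM from 49 and 3 reads, a control to knockout ratio of 4.85 with an interval of 1.57 to 24.3. Slc2a1 thus made up 66.8% of the summed Slc2a level in control and 96.2% in knockout organoids.

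Slc2a8, an intracellular hexose transporter, was lower in the knockout library. It was 7.31 TPM in control and 2.74 TPM in knockout organoids, from 917 and 102 reads. The control to knockout ratio was 2.67 with an interval of 2.18 to 3.31, and the difference was -1.15. It lies on chromosome 2, whose median difference was 0.20. The call of Slc2a8 is close to the threshold: its difference was -0.67 with a pseudocount of 5. The ratio of Slc2a1 to Slc2a8 was 2.49 in control and 39.4 in knockout organoids.

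Of the remaining Slc2a members, none passed the filter. Slc2a9, a urate transporter, was 0.562 and 1.07 TPM, a knockout to control ratio of 1.91 with an interval of 1.42 to 2.54. Slc2a12 was 0.665 and 0.258 TPM, a control to knockout ratio of 2.58 with an interval of 1.60 to 4.40, and it overlaps Tbpl1, at 22.9 and 15.9 TPM. Slc2a6, a lysosomal member, was 0.126 and 0.185 TPM from 16 and 7 reads, and its interval of 0.512 to 3.78 holds a ratio of 1.

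**Figure D2:**
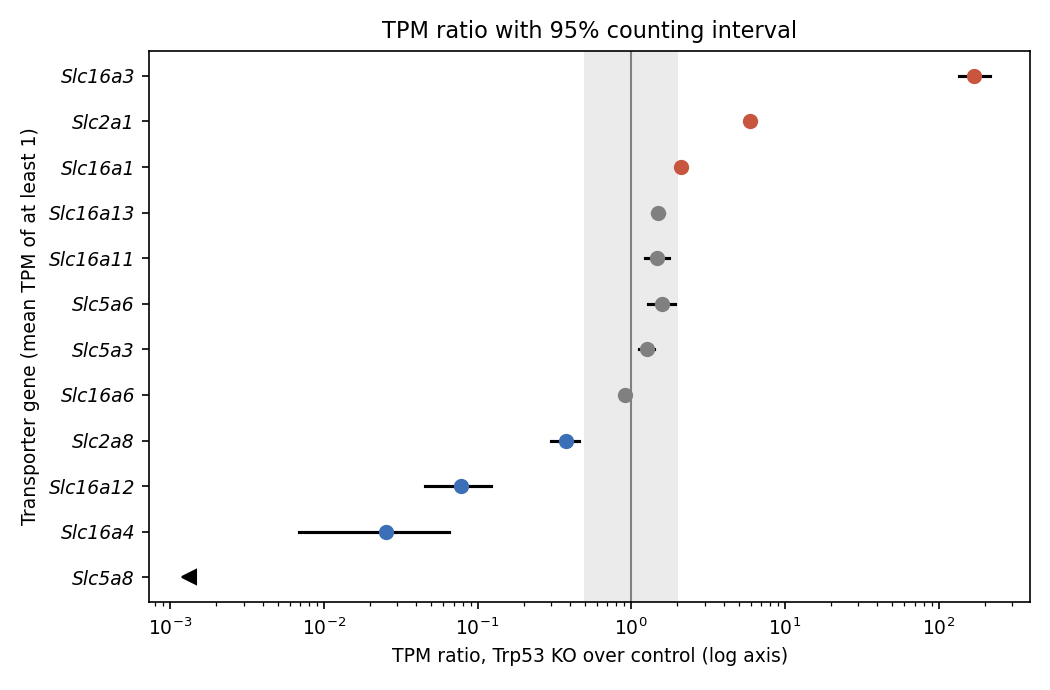
TPM ratio, knockout over control, on a log axis for 12 of the 13 members with a mean TPM of at least 1; bars are 95% counting intervals, narrower than the point for deeply read genes, the grey band spans 2-fold on either side of 1, and the triangle is the bound for Slc5a8, listed at 0 in the knockout library. Called genes are red where higher and blue where lower. Ratios ran from 169 for Slc16a3 to at most 1 in 749 for Slc5a8, and 5 of the genes drawn lay within the band.

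Among the 13 members past the filter Slc5a8 had the largest difference downward. It encodes SMCT1, which takes up lactate, pyruvate and short-chain fatty acids with sodium at the apical face of epithelia. In control organoids it was the third highest member at 23.8 TPM, from about 7562 reads. In knockout organoids it was listed at 0. At the control level the knockout library would have held 2247 reads. Against a floor of 3 reads it was at least 749-fold lower, and the counting interval of the control to knockout ratio began at 609. The difference was -4.63, at place 11173 of 11228. The 250 bases before its start, RefSeq GRCm38.p6 chr10:88885742-88885991 on the plus strand, are shown to set it beside the higher members, with the same capitals.
Slc5a8: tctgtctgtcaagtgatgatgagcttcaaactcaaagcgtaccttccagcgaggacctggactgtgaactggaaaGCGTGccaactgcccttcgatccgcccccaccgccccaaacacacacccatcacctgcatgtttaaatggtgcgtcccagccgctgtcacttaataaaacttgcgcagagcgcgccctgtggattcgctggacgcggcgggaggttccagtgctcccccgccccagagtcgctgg
It held 1 match to the hypoxia element core, starting 175 bases before the start, and 3 GC boxes. Slc5a12, the low-affinity relative SMCT2, was 0.0927 TPM from about 20 reads in control organoids and at 0 in knockout organoids, where 5.94 reads would have been seen at the control level. Its counting interval also began at a control to knockout ratio of 1.47.

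The sodium-coupled sugar transporters were low. Slc5a1, the intestinal glucose and galactose transporter SGLT1, was 0.888 TPM from 217 reads in the control and 0.152 TPM from 11 reads in the knockout library. The control to knockout ratio was 5.86 with an interval of 3.21 to 11.9. Slc5a9, the mannose and fructose transporter SGLT4, was 0.981 and 0.0125 TPM from 263 reads and 1 read, a control to knockout ratio of 78.2 with an interval of 13.9 to 3098. It lies on chromosome 4, like Slc2a1, and its difference was opposite in sign to the median of that chromosome. Both had a mean below the filter and were not called. Slc5a10 was 0.0148 TPM from 2 reads and 0.298 TPM from 12 reads, a knockout to control ratio of 20.2 with an interval of 4.49 to 186. It overlaps Fam83g, which was 2.42 and 12.4 TPM, and whether its reads belong to Fam83g was not tested.

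The other Slc5a members past the filter were within 2-fold. Slc5a3, the myo-inositol transporter SMIT1 that responds to osmotic stress, was 1.70 and 2.16 TPM, a knockout to control ratio of 1.26 with an interval of 1.13 to 1.42. It overlaps the gene Mrps6, which was 111 and 120.5 TPM. Slc5a6, the transporter of biotin and pantothenate, was 1.37 and 2.15 TPM, a ratio of 1.58 with an interval of 1.29 to 1.92. It overlaps Atraid, which was 130.2 and 59.7 TPM. Slc5a5, the thyroid iodide transporter, was 0.0459 TPM from about 8 reads in control organoids and at 0 in knockout organoids, which would have held 2.38 reads. Slc5a8 made up 82.4% of the Slc5a sum in the control library. In the knockout library Slc5a3 and Slc5a6 made up 45.2% and 45.1%.

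Among the proton-linked lactate carriers Slc16a3 had the largest difference. It was 0.277 TPM from 77 reads in control and 46.9 TPM from 3878 reads in knockout organoids, which is a 169-fold ratio with an interval of 135 to 215. Its difference of 5.23 was the 20th highest of 11228 genes. Its neighbour Csnk1d, with which it overlaps, was 69.7 and 48.1 TPM. Slc16a1 was the highest member in both libraries, at 57.3 TPM from 15093 reads and 121 TPM from 9471 reads. Its ratio was 2.11 with an interval of 2.06 to 2.17, and its difference of 1.07 lay just past the threshold. The level of Slc16a1 was 206.95 times that of Slc16a3 in control and 2.58 times in knockout organoids.

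The other lactate carriers were below 1 TPM in both libraries. Slc16a7, the high-affinity MCT2, was 0.720 TPM from about 503 reads in control organoids and at 0 in knockout organoids. It was at least 49.8-fold lower against the floor, with 149 reads to be seen at the control level. Its mean was below the filter. Slc16a8, the MCT3 of retinal pigment epithelium, was 0.0465 and 0.0313 TPM from 5 reads and 1 read. Together the lactate carriers summed to 58.3 TPM in control and 168 TPM in knockout organoids.

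Slc16a10, the aromatic amino acid transporter TAT1, was 0.941 TPM from 370 reads and 0.00856 TPM from 1 read. Its control to knockout ratio was 110.0 with an interval of 19.6 to 4354, but its mean was below the filter and it was not called.

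Of the 8 other Slc16a members, 5 passed the filter and 2 of these were lower, Slc16a4 and Slc16a12. Both passed through the control library only, and with a pseudocount of 5 both were within 2-fold, at -0.74 and -0.65. With a mean TPM of at least 5 neither passed the filter. Slc16a4 was 3.48 and 0.0888 TPM, a control to knockout ratio of 39.2 with an interval of 15.2 to 144, from 528 and 4 reads. Another gene length also gave whole reads in both libraries, and the read numbers and interval would differ with it. Slc16a4 overlaps Rbm15, which was 4.48 and 6.44 TPM. Slc16a12, a creatine transporter of lens and kidney, was 3.24 and 0.251 TPM from 782 and 18 reads, a ratio of 12.9 with an interval of 8.11 to 21.9. Slc16a6, which exports ketone bodies from liver, was the second highest member in the control library. It was 40.3 and 36.5 TPM, and its knockout to control ratio of 0.906 had an interval of 0.856 to 0.958. It overlaps Arsg, at 4.66 and 1.23 TPM. The adjacent genes Slc16a11 and Slc16a13 on chromosome 11 kept their proportion. Slc16a11 was 3.78 and 5.58 TPM, Slc16a13 was 10.04 and 15.0 TPM, and their ratios of 1.48 and 1.49 had intervals of 1.23 to 1.77 and 1.36 to 1.63. Slc16a9 was 0.161 and 0.0151 TPM from 36 reads and 1 read, a control to knockout ratio of 10.7 with an interval of 1.80 to 434. Slc16a14 was 0.241 TPM and listed at 0, at least 4.75-fold lower at the gene length kept. It had 5 possible lengths and Slc16a11 had 2, so this bound and the interval of Slc16a11 would differ with another length. Slc16a5 was 0.0218 TPM from about 4 reads and listed at 0, with 1.19 reads to be seen in the knockout library at the control level.

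**Figure D3:**
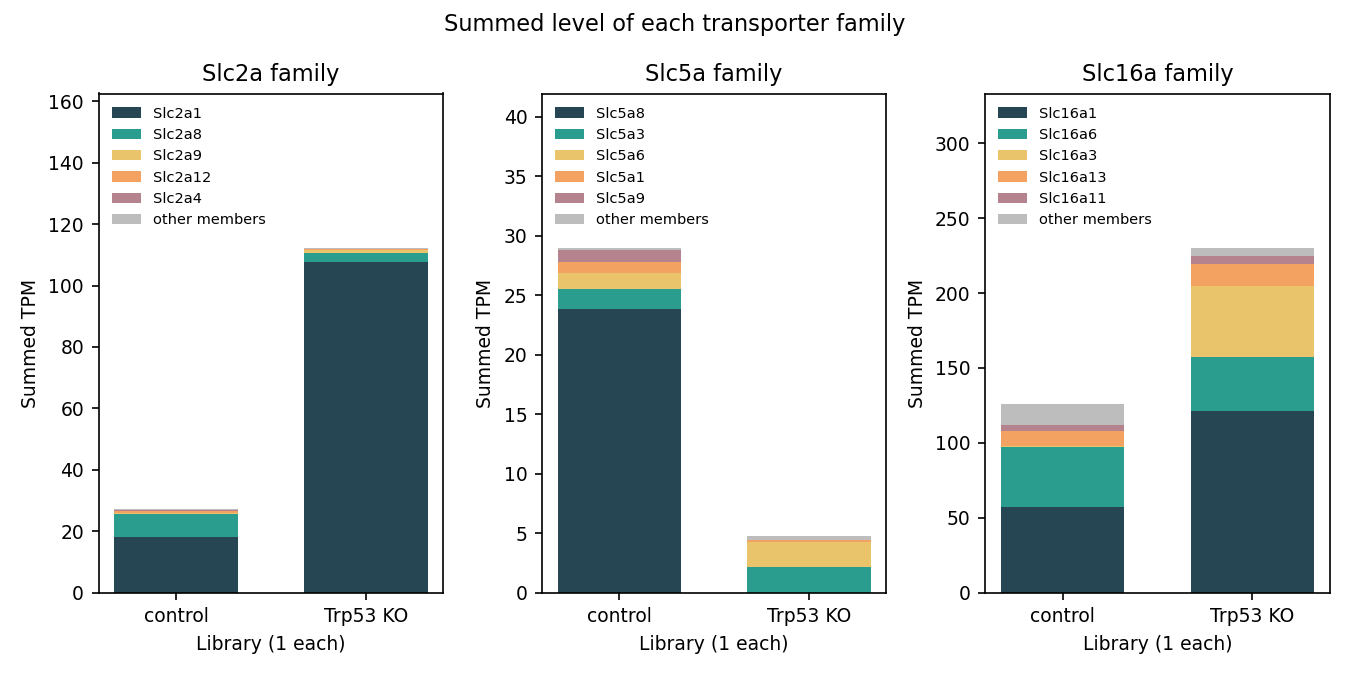
Summed TPM of each transporter family in the control and knockout libraries, 1 library each, with 5 of the members of high summed level drawn as separate segments and the others joined. The Slc2a bar is nearly all Slc2a1 in the knockout library, the Slc5a bar has a Slc5a8 segment in the control library alone, and the Slc16a bar has a clear Slc16a3 segment in the knockout library.

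By family, the summed level of Slc2a was 27.3 TPM in control and 112 TPM in knockout organoids, a ratio of 4.11. That of Slc16a was 126 and 229.7 TPM, a ratio of 1.82. That of Slc5a was 28.9 and 4.77 TPM, a ratio of 0.165. The Slc2a sum in both libraries and the Slc5a sum in control organoids were mostly 1 gene. Without Slc2a1 the Slc2a sum was 9.04 and 4.31 TPM, and without Slc5a8 the Slc5a sum was 5.09 and 4.77 TPM. The Slc16a sum was spread over more genes, with Slc16a1 at 45.4% and 52.7% of it, and without Slc16a1 it was 68.8 and 108.7 TPM. The order of levels changed accordingly. In the control library it ran Slc16a1, Slc16a6, Slc5a8, Slc2a1 and Slc16a13, and in the knockout library Slc16a1, Slc2a1, Slc16a3, Slc16a6 and Slc16a13. The median difference over the 13 members past the filter was 0.22, over the 8 of Slc16a 0.16 and over the 3 of Slc5a 0.22, beside -0.17 over all genes.

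Genes that act on the same solutes were taken from 7 lists with 60 measured genes, of which 47 passed the filter. Of these, 13 were higher, which is 27.7% beside 8.35% of all genes, and 9 lower, which is 19.1% beside 15.3%. The glycolysis list held 9 of the 13 higher genes, and no other list held more than 2, so the pooled share mostly describes glycolysis. The lists were chosen with earlier results of these data known. Of 5 genes of lactate and pyruvate interconversion and import past the filter 1 was higher and 3 lower, with a median of -1.68. Ldha, the subunit that favours lactate formation, was 305 and 1744 TPM, and Ldhb, the subunit that favours pyruvate formation, was 462 and 7.92 TPM. Ldhd, which oxidises D-lactate, was 62.4 and 12.1 TPM, and Mpc1, a subunit of the mitochondrial pyruvate carrier, was 86.6 and 26.3 TPM. Its partner Mpc2 was 198 and 156 TPM, within 2-fold. Glycolysis genes were 9 higher and 1 lower of 14 past the filter, or 64.3% and 7.14%, with a median of 1.33. Their 3 largest differences upward were in Pfkp, at 2.76 and 38.4 TPM, Eno1, at 243.7 and 1218 TPM, and Pfkl, at 48.4 and 187 TPM, and the lower gene was Pfkm at 17.3 and 7.57 TPM.

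Bsg, basigin, which takes Slc16a1 and Slc16a3 to the membrane, was 841 and 788 TPM, within 2-fold. Emb, embigin, the usual partner of Slc16a7, was 422 and 79.4 TPM, and was called lower. Txnip, an arrestin that draws Slc2a1 off the membrane, was 84.0 and 128 TPM, within 2-fold. Tbc1d4, which holds back the transport of Slc2a4 to the membrane, was 1.22 and 3.54 TPM. It was the 1 higher gene of the 6 in this list past the filter, and its difference of 1.03 lay just past the threshold. Of the kinases that trap glucose after entry, Hk2 was 53.3 and 54.1 TPM and Hk1 22.6 and 32.4 TPM. Hkdc1 was 10.07 and 0.0482 TPM, the 1 lower gene of 4 past the filter. Genes of the sodium pump and its regulators, which maintain the gradient that Slc5a proteins use, had 0 higher and 0 lower of 4 past the filter. The shares over all genes tested were 8.35% and 15.3%, so few calls could be seen among 4 genes. Among the sodium pump genes, Atp1b1 was 320 and 175 TPM.

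**Figure D4:**
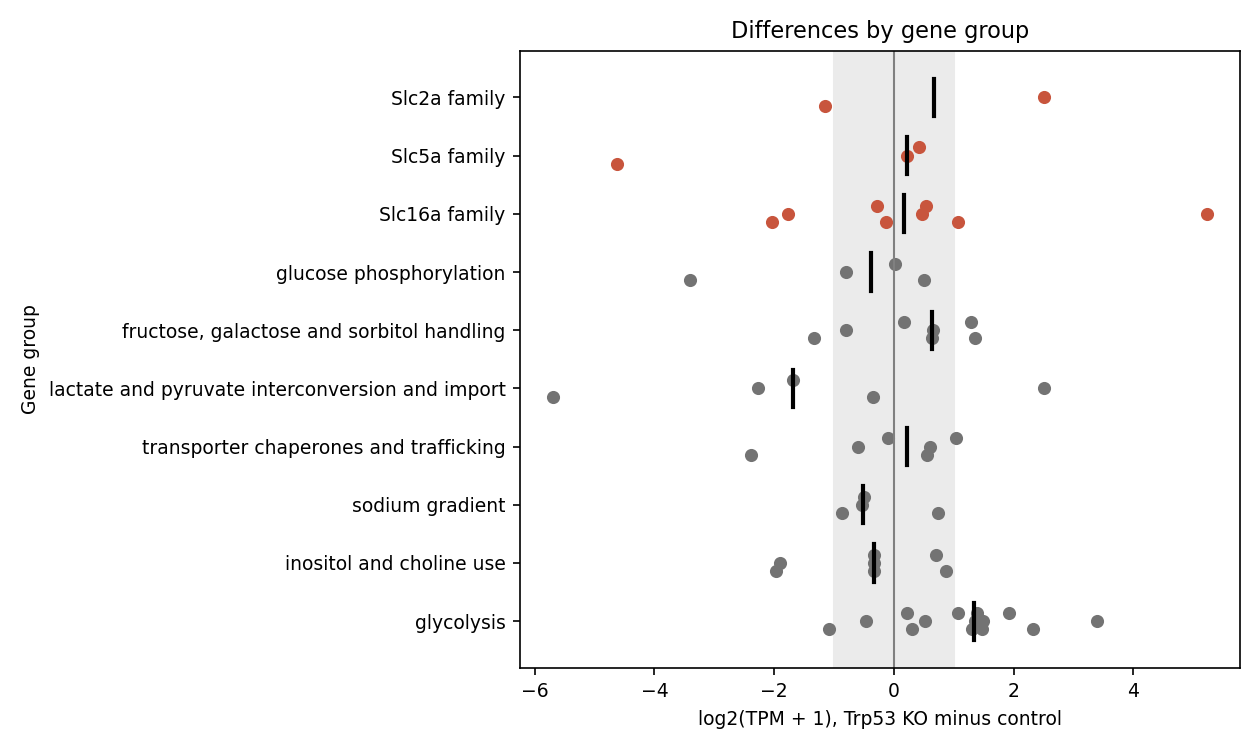
Difference in log2(TPM + 1), knockout minus control, of each gene past the filter in the 3 transporter families (red) and in 7 lists of genes acting on the same solutes (grey); black bars are medians and the grey band spans 2-fold either way. The glycolysis list has its median at 1.33, right of the band, the lactate and pyruvate list at -1.68, left of it, and the transporter medians lie within the band, with Slc16a3 and Slc5a8 the outermost transporters.

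Other genes of sugar and inositol use were mixed. Over all genes tested 8.35% were higher and 15.3% lower, and the counts below are of few genes. Of 7 genes of fructose, galactose and sorbitol handling past the filter 2 were higher and 1 lower, or 28.6% and 14.3%. Akr1b3, aldose reductase, which makes sorbitol from glucose, was 132 and 325.6 TPM, and Khk, ketohexokinase, was 13.9 and 4.94 TPM. Of 7 genes of inositol and choline use past the filter 2 were lower, or 28.6%, and 0 higher. Isyna1, which makes inositol, was 383 and 97.5 TPM, and Chdh, choline dehydrogenase, was 31.8 and 7.72 TPM, while the inositol transporter Slc5a3 was within 2-fold.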

How the data were processed

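RNA was isolated with an RNeasy Plus Mini Kit, made into NEBNext Ultra II Directional libraries and read as 50 bp pairs (NextSeq2000), per the labels' protocols. The authors deposited TPM per gene symbol, 1 file per library. Per the submitters' processing notes GRCm39 was the genome used. Aligner, counting tool, annotation and strand setting: not given in the sources used here. Of 39 members 8 overlap another coding gene, so their reads may be mixed.

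Groups came from the genotype labels. Members and lists were chosen with earlier results of these data known, and the text names the members above 0 (1 is not reported here), all genes of short lists as needed and the 3 largest differences of longer ones. Aldoa, listed under glycolysis, was not analysed here. Of 1676 genes below 0.5 TPM in both libraries, 75.6% had TPM ratios that fit whole read numbers. Reads were then recovered as the whole numbers that 1 gene length between 300 and 15000 bases gives in both libraries, taking the length nearest to GENCODE M21. All 30 members above 0 had such a length, 16 of them equal to an annotated one. Counting only lengths from 0.5 to 1.1 times the longest annotated one, 6 had more than 1 possible length, Slc5a8 among them. Lengths outside these limits can also fit. Read numbers, intervals and bounds thus rest on the length kept. For the 8 members listed at 0 in the knockout library only the control value had to fit, so a fit there is no check. Whether the authors counted reads or read pairs was not stated. Python 3.11.15 with numpy 2.4.6, pandas 2.3.3 and scipy 1.17.1 was used, and calls and read recovery were tested on simulated data. There every gene had its longest annotated length. Recovery of lengths outside the annotation, as for 14 of the members, was not tested. Settings tried besides were a pseudocount of 5 or 0.1, a test without filter or with a mean TPM of at least 5, 3 other scalings, a 4-fold threshold, sums without the highest member and, chosen after the data were seen, differences relative to the own chromosome.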

Additional observations from a re-analysis of the deposited data

How the results depend on the processing

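Each setting was varied alone. With a pseudocount of 5, 1 member of the 3 families was lower, with 0 each in Slc2a and Slc16a, and 563 of all genes were higher and 930 lower. Slc16a4 and Slc16a12 were within 2-fold there and beyond it in the other 5 settings, and Slc2a8 was within 2-fold there and under quantile normalization. Slc2a1, Slc16a1, Slc16a3 and Slc5a8 stayed beyond 2-fold in 6 of 6 settings, with differences of 1.87 to 2.63, 1.02 to 1.29, 3.30 to 6.96 and -7.90 to -2.53. No called member changed sign. With a mean TPM of at least 5, 2 members were lower, 0 of them in Slc16a, the Slc5a median was -4.63 because Slc5a8 was its only gene left, and 1091 of all genes were lower. With no filter the median of all genes was 0.

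Rescaled by the median ratio, the median of all genes was -0.0493, with 1123 higher and 1514 lower, beside 937 and 1715 as deposited. Under quantile normalization it was 0.0335, with 1292 higher and 1321 lower, 0 Slc2a members lower and a Slc5a median of 0.66. Relative to the own chromosome, chosen after the data were seen, it was 0 and the Slc5a median 0.57. Without mitochondrially encoded genes and the 100 highest genes, sums in control and knockout organoids were 46.6 and 194 TPM for Slc2a, 49.4 and 8.27 TPM for Slc5a, 215 and 398.6 TPM for Slc16a, and 311 and 601 TPM for all 3. Without the highest member of each family they were 9.04 and 4.31 TPM for Slc2a, 68.8 and 108.7 TPM for Slc16a, 82.9 and 117.8 TPM for all 3, and 5.09 TPM for Slc5a in the control. With a 4-fold threshold 2 members were lower, 0 in Slc2a and 1 in Slc16a, and 1 in Slc16a was higher. The lists of other genes then had 3 higher and 4 lower, and all genes 267 and 661. Beyond what each setting's construction gives, the cause was not tested. No paired analysis was possible because each genotype had 1 library.

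Depth limits the low members: 3 reads in the knockout library are the floor, and Slc2a3, Slc5a5 and Slc16a5 would have stayed under it at their control level.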

Other observations

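Promoter composition was described for the 29 members with a RefSeq window, taking the first window where a gene has more than 1. The 250 bases before the start held a median of 15.5 CpG in the 10 members that passed the filter, and 3 in the 8 members listed at 0 in both libraries. The median over all windows was 6. A match to the hypoxia element core was present in 9 of these 10 and in 0 of these 8. The core itself contains a CpG, so both counts share that feature. By direction, the core was present in 3 of 3 higher members, 3 of 4 lower members and 3 of 3 members within 2-fold. The GC content ran from 66.4% to 76.4% in the higher members and from 48.0% to 58.8% in the lower ones. In members within 2-fold it ran from 54.8% to 74.8%, and in members listed at 0 in both libraries from 45.6% to 66.4%. These are descriptions of few genes with no test.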
